A study of Arabidopsis thaliana with 6 samples.

Results

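Transcript signals of the wall acetylation and pectin modification families were compared between whole rosettes of wild-type Arabidopsis thaliana and of 35S:PCO1 plants, both kept in air (normoxia). The members were the probe sets (the probes that together report on one transcript) that the platform annotation pairs with 1 gene, where that gene's symbol begins with TBL, PME, PMEI, GAUT, GATL, IRX or RWA and a digit. This gave 26 genes, each with 1 probe set, of 13350 genes that have a probe set of their own and 22746 probe sets tested. They comprise 22 TBL genes, 1 PME gene (PME61), 1 GAUT gene (GAUT15) and 2 IRX genes (IRX15 and IRX15-L). A further 4 genes, PME39, PME41, TBL40 and IRX10, carry such a name only as a synonym and were not members. The annotation gave 0 members for PMEI, GATL and RWA, and the RefSeq gene table lists 88 genes with symbols of this form. The label of these families is thus carried mostly by TBL genes, and only 3 members act, by their names or background knowledge, on pectin.

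Each group had 3 samples with 1 Affymetrix array each, and the labels name the transgene as the only difference between wild type and 35S:PCO1. The labels disagree on the overexpressed gene: titles and source names write 35S:CDO1, while the genotype label writes 35S:PCO1, the name kept here. The 35S promoter, of viral origin, drives PCO1 (plant cysteine oxidase, an enzyme that uses oxygen to oxidise N-terminal cysteines and so marks hypoxia regulators for degradation) in nearly all tissues. Plants grew with 8 h of light at 22 °C and 16 h of darkness at 18 °C and were harvested 2 h after the day began. Their age is given as 4 weeks in one label and as 5 weeks in another. The sources used here do not say how many transgenic lines were used or whether a sample was 1 plant or a pool. The spread between the 3 samples of a group could therefore be technical. For its p-values limma takes that spread for each probe set and draws it toward the spread typical of all probe sets. The annotation pairs no probe set with PCO1, so its level was not analysed here.

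Plant cell walls are built from cellulose, hemicelluloses such as xylan, xyloglucan and mannan, and pectin. Many of these polysaccharides carry acetyl groups, which TBL (TRICHOME BIREFRINGENCE-LIKE) proteins of the Golgi add to particular sugars. Pectin is made with methyl esters on its galacturonic acid, by GAUT galacturonosyltransferases and methyltransferases, and pectin methylesterases (PME) remove these esters once it is in the wall. IRX15 and IRX15-L, named for the irregular xylem of related mutants, act in making xylan of normal chain length.

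Values are RMA signals on the log2 scale, so a difference of 1 is 2-fold. Differences are 35S:PCO1 minus wild type, tested with limma with Benjamini-Hochberg adjustment over all 22746 probe sets at a threshold of 0.05. The signals of different probe sets depend on their probes and were not set against each other as amounts of transcript. In whole rosettes, fewer cells of a type and less RNA per cell cannot be told apart.

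Of the 26 members, 1 fell (TBL36), 1 rose (PME61) and 24 did not pass the test. Over all probe sets 0.840% passed, 0.633% as falls and 0.207% as rises. The median difference of the members was -0.03, beside 0.004 over all probe sets, and 16 members lay below 0 and 10 above. In 15 members, or 57.7%, the difference was smaller than 0.1 in size, beside 70.6% of all probe sets, and among these 15 the 95% confidence intervals reached at most 0.31 from 0. At an unadjusted p under 0.05 there were 8 members, 4 higher and 4 lower, where 13.4% of all probe sets passed. The groups did not overlap in 9 members (5 higher and 4 lower in 35S:PCO1), beside 18.4% of all probe sets. Of these 9, TBL36, TBL37, TBL39 and IRX15-L were lower, and PME61, TBL25, TBL38, TBL43 and TBL45 were higher.

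**Figure D1:**
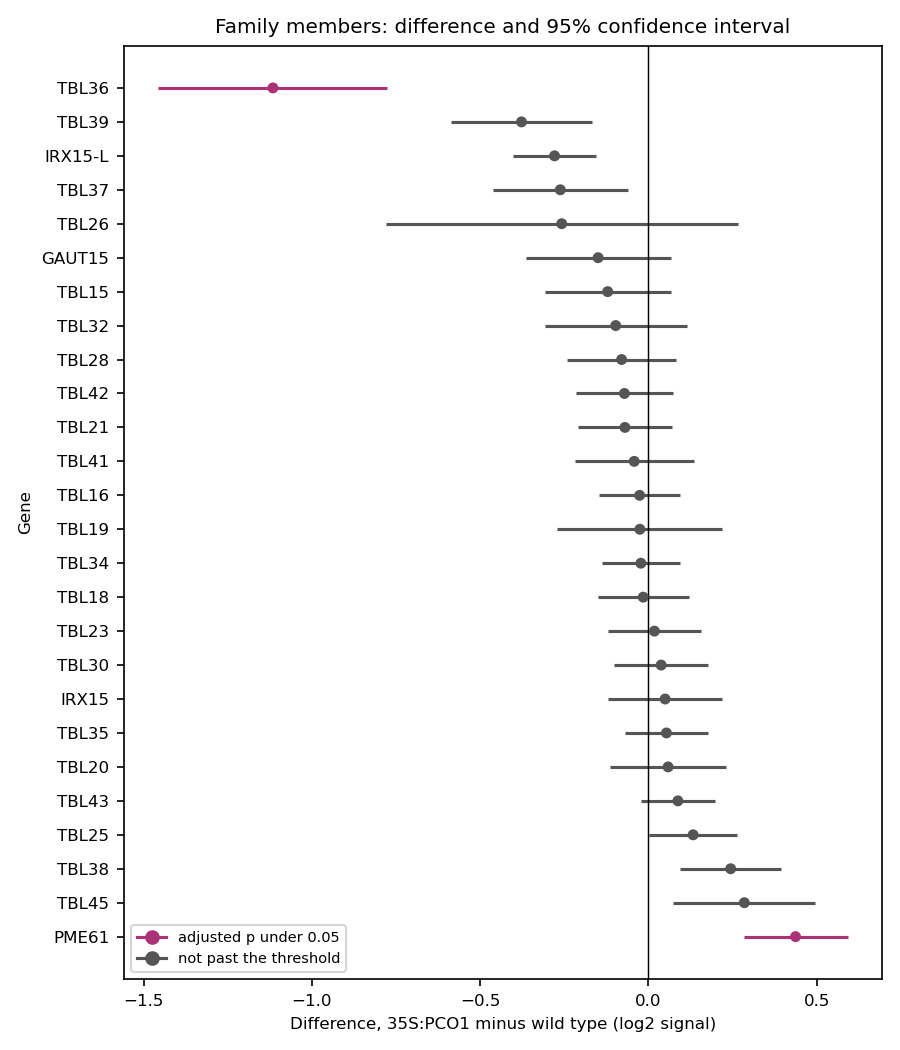
Difference of each of the 26 members between 35S:PCO1 and wild type (points, log2 signal) with its 95% confidence interval from limma (lines), ordered from the most negative difference, TBL36 at -1.12, to the most positive, PME61 at 0.44. These 2 members, coloured, passed the adjusted threshold, and the interval of TBL26 was the widest.

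The arrays had medians between 6.11 and 6.15, and correlations across probe sets of 0.996 to 0.999 within groups and 0.995 to 0.997 between them. The leaf genes RCA and LHCB4.1, the 2 of 8 leaf markers that were measured, lay at 13.4 to 13.6 in every array, with differences of 0.04 and -0.04. Of 5 root markers 3 were measured: PYK10 differed by -0.45, EXPA7 by 0.19 and EXPA18 by 0.03. Of the 3, 0 passed, beside 0.840% of all probe sets. An unadjusted p under 0.05 was found for 2 (PYK10 and EXPA7), beside 13.4% of all probe sets. With wild-type replicate 3 left out PYK10 passed (-0.65, limma adjusted p = 0.0180). With weighted arrays PYK10 (-0.55, limma adjusted p = 0.0072) and EXPA7 (0.24, limma adjusted p = 0.0277) passed. That fit called 2216 of all 22746 probe sets, beside 191 without weights. It gave wild-type replicate 2 a weight of 4.55, against 0.52 and 0.43 for wild-type replicates 1 and 3. The annotation paired no probe set with a flower and pollen, seed, or trichome and epidermis marker. Measured here means paired with a probe set in this way. The other genes could still lie among the 8730 probe sets with no gene or the 503 with several. The control probe set for 25S ribosomal RNA lay at 8.88, 8.66 and 8.48 on the wild-type arrays, in replicate order, against 7.39, 7.54 and 7.30 on those of 35S:PCO1. It was therefore lower in all 3 arrays of 35S:PCO1, as was TBL36, and its part in the results was not tested. For 5S ribosomal RNA the control differed by 0.04 (SE 0.12), and the groups overlapped. As a gauge of RNA quality, the 3′ signal exceeded the 5′ signal of 6 control pairs by a mean of 0.761, 0.688 and 0.581 in wild type and of 0.579, 0.628 and 0.547 in 35S:PCO1.

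Among the TBL genes, the acetylation family, 1 of 22 passed the test, beside 0.840% of all probe sets. TBL36 (AT3G54260) was 2.17-fold lower in 35S:PCO1. Its wild-type signals, given here and for each gene in the order of replicates 1, 2 and 3, were 6.60, 6.93 and 7.35, and those of 35S:PCO1 were 5.83, 5.84 and 5.87. The highest 35S:PCO1 array lay 0.73 below the lowest wild-type array, and the 35S:PCO1 arrays lay within 0.04 of each other while the wild-type arrays spread over 0.76. The difference was -1.12 (SE 0.15, limma adjusted p = 0.0170), with means of 6.96 ± 0.38 and 5.84 ± 0.02 (SD, n = 3 each). Of all probe sets, 0.123% differed by more in either direction. The polysaccharide that TBL36 acts on is not given here.

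TBL37 (AT2G34070) and TBL39 (AT2G42570), further members of the family, were also lower in every 35S:PCO1 array, but neither passed the test. TBL39 was at 6.40, 6.51 and 6.79 in wild type and at 6.27, 6.16 and 6.14 in 35S:PCO1. Its difference was -0.38 (SE 0.09, limma adjusted p = 0.120). TBL37 was at 6.89, 7.01 and 7.27 in wild type and at 6.77, 6.76 and 6.85 in 35S:PCO1, a difference of -0.26 (SE 0.09, limma adjusted p = 0.250). For both genes, as for TBL36, the wild-type array nearest to 35S:PCO1 was that of replicate 1 and the farthest that of replicate 3. Without wild-type replicate 1, TBL39 passed (-0.46, limma adjusted p = 0.0319), and TBL37 was at -0.34. Without wild-type replicate 3 the differences were -0.27 and -0.16. In 9 of the 26 members, or 34.6%, wild-type replicate 3 was the highest and replicate 1 the lowest of the wild-type arrays, beside 27.3% of all probe sets.

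**Figure D2:**
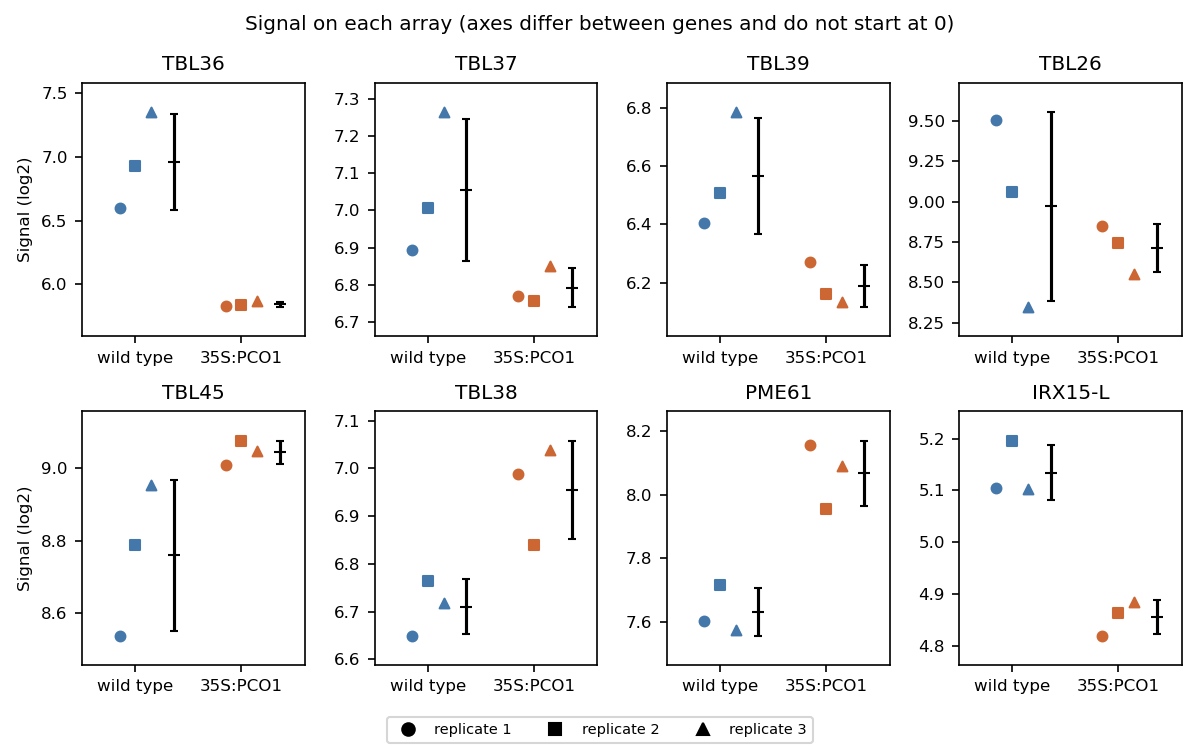
Log2 signal of 8 members on each array, with wild type in blue, 35S:PCO1 in orange, a marker shape for each replicate number, and the mean with its SD (n = 3) in black; each panel has its own axis. TBL36, TBL37 and TBL39 were lower in 35S:PCO1 with the wild-type arrays spread apart, PME61 and TBL38 were higher, and the groups overlapped in TBL26.

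TBL38 (AT1G29050) and TBL45 (AT2G30010) were higher in every 35S:PCO1 array without passing the test. TBL38, unlike the rest of its family, has been described as removing acetyl groups from the pectin of the seed coat. It was at 6.65, 6.76 and 6.72 in wild type and at 6.99, 6.84 and 7.04 in 35S:PCO1. The difference was 0.24 (SE 0.07, limma adjusted p = 0.153), and the arrays of either group spread over less than this. TBL45 was at 8.54, 8.79 and 8.95 in wild type and at 9.01, 9.07 and 9.05 in 35S:PCO1. Its difference was 0.29 (SE 0.09, limma adjusted p = 0.234), smaller than the wild-type range of 0.42. It was 0.17 with wild-type replicate 1 left out and 0.38 with replicate 3 left out. Wild-type replicate 3 here lay nearest to 35S:PCO1, only 0.06 below its lowest array.

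Of the TBL genes known to acetylate xylan, the main hemicellulose of woody walls, 5 were measured (TBL28, TBL30, TBL32, TBL34 and TBL35). In this set 0 passed, beside 0.840% of all probe sets, so that 0 of 5 does not set these genes apart. Their differences ran from -0.10 for TBL32 to 0.05 for TBL35. The groups overlapped in all 5, where 18.4% of all probe sets had groups that did not overlap. With 1 array left out that of TBL32 ran from -0.20 to -0.02. TBL34 was at 4.16, 4.19 and 4.19 in wild type and at 4.18, 4.18 and 4.11 in 35S:PCO1. The 95% confidence interval of its difference ran from -0.14 to 0.09. The interval of TBL35 ran from -0.07 to 0.18, that of TBL28 from -0.24 to 0.08 and that of TBL30 from -0.10 to 0.18. The widest of the 5 was that of TBL32, from -0.31 to 0.11; its probe set has the suffix that Affymetrix gives to sets that can detect more than one transcript, so its value may not be that of TBL32 alone. TBL28 and TBL30 are direct neighbours on chromosome 2, with 0 protein-coding genes between them, and differed by -0.08 and 0.04. The signals of TBL30 and TBL34 lay close above 3.82, the highest value of control probe sets for bacterial dap and lys genes. A fall of either gene could therefore be partly hidden.

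Of the TBL genes known to acetylate mannan, a hemicellulose rich in mannose, 3 were measured (TBL23, TBL25 and TBL26). In this set 0 passed, beside 0.840% of all probe sets. TBL26 (AT4G01080) had the widest wild-type spread of all 26 members. It was at 9.51, 9.06 and 8.35 in wild type and at 8.85, 8.74 and 8.55 in 35S:PCO1. The 3 arrays of 35S:PCO1 all lay within the wild-type range of 1.16. The difference of -0.26 (SE 0.23, limma adjusted p = 0.704) had an interval from -0.78 to 0.27, so that no change was detectable at this spread. Leaving out wild-type replicate 1 made it 0.01, and leaving out wild-type replicate 3 made it -0.57. Among the root markers, PYK10 was likewise highest in wild-type replicate 1 and lowest in replicate 3, at 8.38, 8.19 and 7.68, against 7.55, 7.74 and 7.60 in 35S:PCO1. The other measured root markers did not share this order, with EXPA7 at 6.01, 5.89 and 5.99 in wild type and EXPA18 at 4.78, 4.80 and 4.91. The 25S ribosomal RNA control (8.88, 8.66 and 8.48) had the same wild-type order. So had the excess of 3′ over 5′ signal (0.761, 0.688 and 0.581). The part of root tissue or of RNA quality in the value of TBL26 was not tested.

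TBL25 (AT1G01430) was at 8.54, 8.65 and 8.62 in wild type and at 8.68, 8.80 and 8.73 in 35S:PCO1. The groups did not overlap, by a margin of 0.03, and the difference of 0.13 (SE 0.06) did not pass (limma adjusted p = 0.365). TBL23 was at 7.32, 7.34 and 7.39 in wild type and at 7.36, 7.46 and 7.28 in 35S:PCO1, with a difference of 0.02 and an interval from -0.12 to 0.16.

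**Figure D3:**
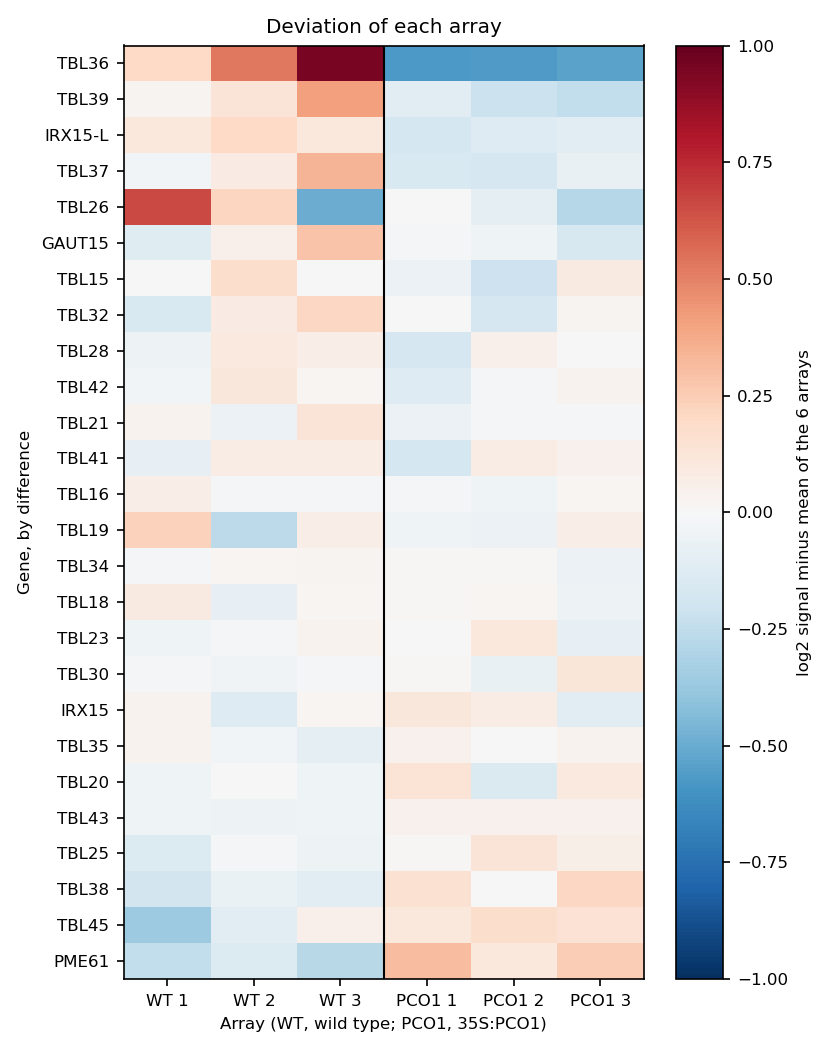
Log2 signal of each member on each array minus the member's mean over the 6 arrays (red above, blue below), with wild-type arrays left of the line and 35S:PCO1 arrays right of it, and genes ordered by difference. TBL36 and PME61 separate the groups, while TBL26 varies most among the wild-type arrays.

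The remaining TBL genes, for which no substrate is given here, differed little. TBL43 (AT2G30900) had the least spread of all members. It was at 4.38, 4.37 and 4.38 in wild type and at 4.46, 4.47 and 4.47 in 35S:PCO1. The groups were apart, yet the difference of 0.09 did not pass (limma adjusted p = 0.499). With an unmoderated t statistic the adjusted p of TBL43 was 0.154. Of all 22746 probe sets 0 passed with that statistic, so this says little about TBL43 itself. TBL19 and TBL21, direct neighbours on chromosome 5, differed by -0.03 and -0.07. TBL19 was at 4.85, 4.36 and 4.69 in wild type and at 4.58, 4.56 and 4.69 in 35S:PCO1, a wild-type range of 0.49. TBL21 was at 3.66, 3.56 and 3.76 in wild type and at 3.57, 3.60 and 3.60 in 35S:PCO1. These values lie within 3.07 to 3.82, where 12 control probe sets for bacterial dap and lys genes lay, so that a fall could hardly be seen. TBL21 was the 1 member with both means in that range. The differences of TBL15, TBL16, TBL18, TBL20, TBL41 and TBL42 lay between -0.12 (TBL15) and 0.06 (TBL20). The groups overlapped in each of these genes, where 18.4% of all probe sets had groups that did not overlap. That of TBL15 ran from -0.19 to -0.05 with 1 array left out. TBL40, which was not a member, differed by 0.005 and 0.009 on its probe sets, with overlapping groups.

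Of the members that act on pectin, PME61 (AT3G59010) rose by 0.44 on the log2 scale in 35S:PCO1, or 1.35-fold. PME61, listed in RefSeq also as PME35, encodes a pectin methylesterase known from the supporting tissue of the stem. Its signal was 7.60, 7.71 and 7.57 in wild type and 8.16, 7.95 and 8.09 in 35S:PCO1. The lowest 35S:PCO1 array lay 0.24 above the highest wild-type array, and the groups spread over 0.14 and 0.20. The difference had an SE of 0.07 and an interval from 0.28 to 0.59 (limma adjusted p = 0.0272), with means of 7.63 ± 0.07 and 8.07 ± 0.10 (SD, n = 3 each). By size, 38 probe sets rose by more than PME61, which ranked 39 among all differences upward. PME39 and PME41, which were not members, differed by 0.03 and 0.001, with overlapping groups.

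GAUT15 (AT3G58790), a member of the galacturonosyltransferase family that builds pectin, did not pass. It was at 6.20, 6.37 and 6.61 in wild type and at 6.30, 6.28 and 6.16 in 35S:PCO1. The groups overlapped, and the difference of -0.15 (SE 0.10, limma adjusted p = 0.563) was smaller than the wild-type range of 0.41. It was -0.25 with wild-type replicate 1 left out and -0.04 with replicate 3 left out.

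IRX15 and IRX15-L, a pair of related genes for xylan, gave unlike values. IRX15-L (AT5G67210) was at 5.10, 5.20 and 5.10 in wild type and at 4.82, 4.86 and 4.88 in 35S:PCO1. The lowest wild-type array lay 0.22 above the highest 35S:PCO1 array, more than the range of either group. Its difference of -0.28 (SE 0.05) lay just outside the threshold (limma adjusted p = 0.0573). IRX15 (AT3G50220) was at 4.07, 3.90 and 4.05 in wild type and at 4.141, 4.103 and 3.921 in 35S:PCO1, with a difference of 0.05 and an interval from -0.12 to 0.22. All IRX15 signals lay close above 3.82, the highest value of the dap and lys control probe sets, so a fall could be partly hidden. Those of IRX15-L lay further above it. The contrast between these genes was not tested.

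The spread within groups set how far these comparisons reached. Over the members the 3 arrays spanned a median range of 0.151 for wild type and 0.137 for 35S:PCO1, beside 0.144 and 0.126 over all probe sets. Of the 26 members 15, or 57.7%, had the wider range in wild type, beside 56.9% of all probe sets. TBL26 and TBL36 had the widest wild-type ranges, 1.16 and 0.76, and TBL15 the widest in 35S:PCO1, 0.29, with TBL26 next to it.

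**Figure D4:**
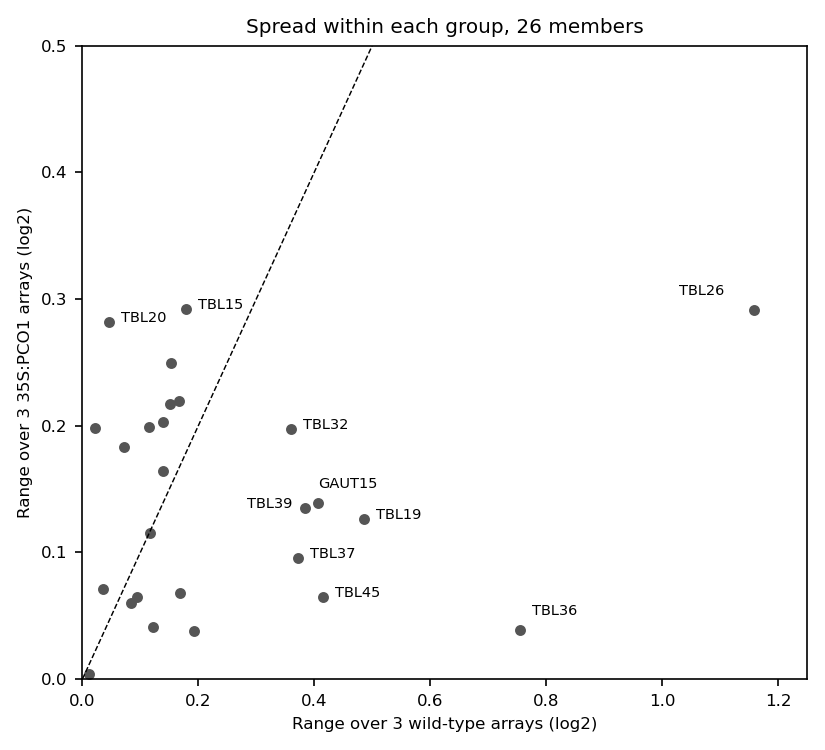
Range of log2 signal over the 3 wild-type arrays (horizontal axis) and the 3 35S:PCO1 arrays (vertical axis, drawn on a larger scale) for each member; members right of the dashed line of equal range spread more in wild type. TBL26 and TBL36 lie far to the right, at 1.16 and 0.76.

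The calls of TBL36 and PME61 were lost in most fits with 1 array left out, fits that also have fewer samples. TBL36 passed in 2 of 6 such fits and PME61 in 2 of 6. The difference of TBL36 ran from -1.30 (without wild-type replicate 1, limma adjusted p = 4.87e-04) to -0.92 (without wild-type replicate 3, limma adjusted p = 0.00956). Its adjusted p was 0.105 without wild-type replicate 2 and 0.0877, 0.0571 and 0.116 without 35S:PCO1 replicates 1, 2 and 3. The difference of PME61 ran from 0.39 to 0.49, and its adjusted p was 0.0274 when wild-type replicate 1 was left out and 0.0367 when 35S:PCO1 replicate 2 was. It was 0.105 and 0.0527 without wild-type replicates 2 and 3, and with 35S:PCO1 replicates 1 and 3 left out it was 0.123 and 0.163. The groups of both genes did not overlap, so leaving out 1 array could not change the sign of either difference. Leaving out wild-type replicate 1 gave 4 members called (TBL36, TBL39, IRX15-L and PME61), leaving out wild-type replicate 3 gave 1 (TBL36) and leaving out 35S:PCO1 replicate 2 gave 1 (PME61). Leaving out any 1 of the other 3 arrays gave 0. At an unadjusted p under 0.05, these last fits each gave 8 members, beside 8.55% to 10.2% of all probe sets. Over the whole table the adjusted threshold called 489, 149 and 105 probe sets in the first 3 of these fits, in the order named, and 5 in each of the last 3, beside 191 with all arrays.

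**Figure D5:**
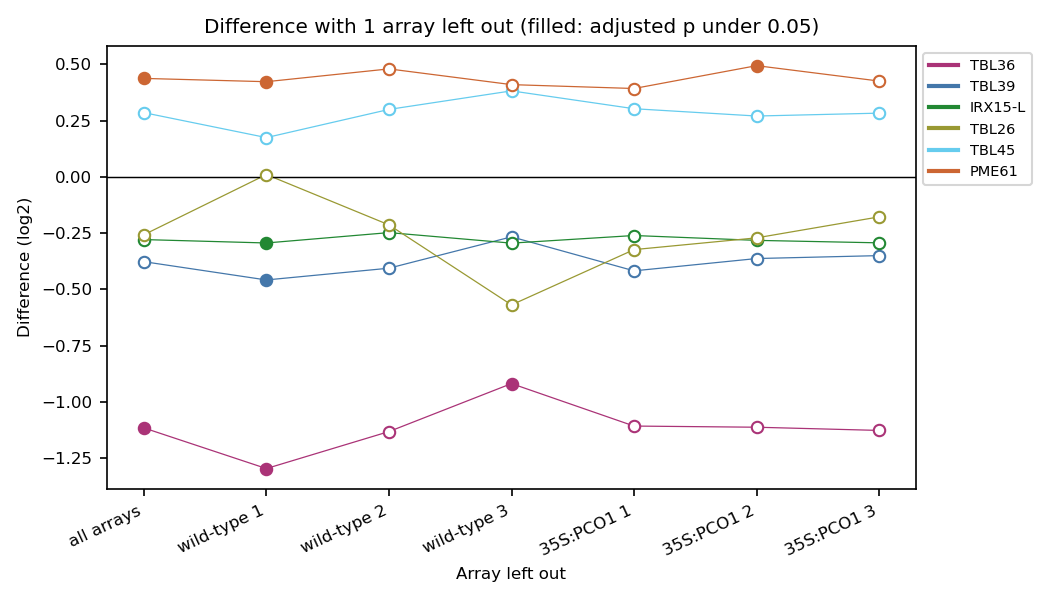
Log2 difference of 6 members with all arrays and with each array left out in turn (horizontal axis); filled points passed an adjusted p of 0.05 and open points did not. TBL36 stays between -1.30 and -0.92 and PME61 between 0.39 and 0.49, while TBL26 runs from -0.57 to 0.01.

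Genes that act beside these families were compared through lists written from textbook knowledge. Of 85 list entries the annotation paired 17 with a probe set, 2 of them members (IRX15 and IRX15-L). Most of each pathway was thus not analysed here, which does not mean that it is absent from the array. None of the 15 others passed limma's test over all probe sets, where 0.840% did. An unadjusted p under 0.05 was found for 2 of the 15, a share near the 13.4% of all probe sets. In the list of pectin breakdown and deacetylation, 10 of 21 genes were measured, with 7 below 0, 3 above and a median of -0.04. The largest difference was that of AT1G67750, written for this list as a pectate lyase gene. It was at 7.77, 8.00 and 8.28 in wild type and at 7.48, 7.64 and 7.47 in 35S:PCO1, so that the groups did not overlap. The difference was -0.49 (SE 0.11, limma adjusted p = 0.0982), and it passed without wild-type replicate 1 (limma adjusted p = 0.0104). Of the other genes of that kind, AT4G24780 differed by -0.21 (SE 0.06, limma adjusted p = 0.187), AT5G48900 by -0.23 and AT5G63180 by 0.11. The value of AT5G48900 was -0.36 with wild-type replicate 1 left out and -0.09 with replicate 3 left out, and the latter fit gave 0.05 for AT5G63180.

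In the list of secondary wall and xylan genes 4 of 33 were measured, IRX15 and IRX15-L among them. The others, IRX10 and its near copy IRX10-L (named GUT2 and GUT1 in the annotation), which build the xylan backbone, differed by 0.07 and 0.03. In the acetylation list 2 of 10 were measured: TBR (AT5G06700), which gave the TBL family its name, differed by 0.01 and AT3G03210 by -0.06. In the list of pectin synthesis and methylesterification, the 1 of 21 genes measured, AT3G49720, differed by 0.04. The groups overlapped in all 5 of these genes, where 18.4% of all probe sets had groups that did not overlap.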

How the data were processed

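The deposited table holds log2 signals that the authors computed with RMA, per the submitters' processing notes, which name no version. RMA corrects background, equalises the arrays' distributions and summarises each probe set, with no detection call. The values were used as deposited. Of 22810 probe sets, 64 controls were set aside; of the other 22746, the platform annotation pairs 13513 with 1 gene, 503 with several and 8730 with none. Symbols were updated through the RefSeq table of assembly TAIR10.1 (13436 matched), used for names and neighbours only.

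Groups were compared with limma 3.58.1 in R 4.3.3 (lmFit and eBayes, prior degrees of freedom 5.35, two-sided) with no covariate. Precision is limited by the number of arrays, with a median SE of 0.0648 for a difference, and 3 arrays against 3 cannot give an exact permutation p below 0.1. All members are given; of each list, up to 4 genes with the smallest p are named. The members, lists, tests and alternatives were chosen with earlier results of these data known. Samples were grouped by their description labels. Same-numbered arrays showed no shared deviation from their group means: these deviations correlated at -0.06, -0.08 and -0.02 across probe sets. Whether the replicate numbers mark batches is not settled by this.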

Additional observations from a re-analysis of the deposited data

How the results depend on the processing

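The alternatives were dropping the dimmest 20% or 40% of probe sets, 3 further scalings (by medians, quantiles or cyclic loess), a prior with trend and robust fit, weighted arrays, a t statistic without moderation, the replicate number as a block, an adjusted p under 0.1, averaging a gene's probe sets (which changes nothing with 1 per member) and leaving out each array. The number of members called (2) was 6 with weighted arrays and 0 with the unmoderated t statistic, of which 6 had an unadjusted p under 0.05. It was 2 or 3 under the others that keep all arrays, and 0 to 4 with 1 array left out. Over the whole table the count (191) was 2216 with weighted arrays, 0 with the unmoderated t statistic (2472 before adjustment), 426 at an adjusted p under 0.1, and 5 to 489 with 1 array left out. Of the 15 list genes outside the families, 0 passed limma's test, beside 0.840% of all probe sets. At an unadjusted p under 0.05 there were 2, beside 13.4% of all probe sets. With weighted arrays 2 passed, at an adjusted p under 0.1 it was 1, and with 1 array left out 0 to 1. With the replicate block 228 probe sets passed (155 of them among the 191), the members called were 2, and no member's call changed. The unmoderated t statistic gave TBL36 an adjusted p of 0.315 and PME61 one of 0.287, and both passed in the 8 other fits that keep all arrays. IRX15-L passed with cyclic loess (limma adjusted p = 0.0492) and without wild-type replicate 1 (limma adjusted p = 0.0484), and IRX15-L, TBL38, TBL39 and TBL45 passed with weighted arrays.

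The sign turned for 10 members and for 3 of the 14 list genes named in this report, none of which passed in any setting. The differences of list genes that are not named were not followed through these settings, and some of them may turn as well. With weighted arrays TBL16 was 0.0017, TBL18 0.041, TBL19 0.19, TBL21 0.0031, IRX10 -0.0048 and IRX10-L -0.030. TBL18 was 0.0031 with median scaling and 0.0055 with quantile scaling. With 1 array left out, the differences ran from -0.0038 to 0.12 for IRX15, from -0.041 to 0.0015 for TBL16, from -0.060 to 0.024 for TBL18, from -0.16 to 0.082 for TBL19, from -0.029 to 0.062 for TBL23, from -0.57 to 0.010 for TBL26, from -0.013 to 0.086 for TBL30, from -0.035 to 0.00036 for TBL34, from -0.093 to 0.036 for TBL41 and from -0.024 to 0.047 for TBR. The cause was not tested; a fit without 1 array has fewer samples.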
